A study of Mus musculus with 12 samples.

Results

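Mouse N2a cells that had received brain-derived extracellular vesicles (BDEVs), of whichever kind, were compared with N2a cells that had received vehicle. All 12 libraries of the series entered the comparison: 4 SE-BDEV and 4 CON-BDEV libraries formed a single group of 8, and the 4 Vehicle libraries formed the other. N2a is an established mouse neuroblastoma line, a tumour line of the sympathetic neuron lineage. SE abbreviates status epilepticus in the title of the series, a seizure that does not stop by itself, and CON is not spelled out in the labels. Every group was the same line with no genetic change named. The labels give no vesicle dose, no exposure time and no source animal, and they leave unsaid whether vesicles were pooled and whether replicate libraries stand for separate cultures. The p-values therefore measure the spread among these samples only, and that spread may be technical. Library names number all BDEV libraries, with the kinds alternating, before all Vehicle libraries. What the numbering marks is not said, so an effect of its order could not be told apart from treatment and was not tested. RNA was polyadenylated RNA from whole cultures, in which fewer cells of a type and less RNA per cell cannot be told apart.

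Extracellular vesicles are membrane-bound particles that cells release and that other cells can bind or take up, bringing them lipid, protein and RNA. Lipid supply is read in mammalian cells by SREBP1 and SREBP2, transcription factors that are held in the endoplasmic reticulum when sterol is plentiful and otherwise turn on the genes of fatty acid and sterol synthesis. N2a cells are also used as a neuron-like model because they express catecholamine enzymes, dense-core granule proteins and neuronal cytoskeleton. The account below sets the sterol genes aside as a reference and follows the response through the other pathways.

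Levels are FPKM, fragments of a gene scaled to transcript length and to the mapped fragments of the library, as the authors made them, and differences are on the log2(FPKM + 1) scale, BDEV minus Vehicle, ± its standard error. This scale makes changes at low levels look smaller than they are. Depth, estimated from the lowest values, was 12300000 to 14500000 fragments in BDEV libraries and 14200000 to 15500000 in Vehicle libraries. Of 18 neuroblastoma line markers, 17 had a mean of at least 1 FPKM. The summed level of these markers was 1580 to 1740 FPKM in BDEV and 1580 to 1630 FPKM in Vehicle. The sum hides changes of single markers. Of the 17, 6 rose and 1 fell past the threshold used below, against 1.91% and 2.38% of all genes tested. The median log2 difference of the 17 was 0.13. The markers that passed, Dbh, Phox2a, Gata3, Hand2, Chga, Chgb and Stmn2, are counted again in the neuronal lists below. The median of the list was 0.04 to 0.19 in BDEV libraries and -0.01 to 0.01 in Vehicle libraries. Many markers of cells that brain vesicles could have come from, among them Slc17a7, Gfap, Mog, C1qb and Cldn5, were near 0. Under 0.5 FPKM in every library were 12 of 20 forebrain neuron and 9 of 15 astrocyte markers. So were 12 of 16 oligodendrocyte, 12 of 15 microglia and 14 of 18 endothelial and blood markers. Their summed levels in BDEV and Vehicle were 140 to 150 and 146 to 149 FPKM for forebrain neurons, 20.3 to 24.5 and 23.9 to 27.2 for astrocytes, 18.8 to 22.6 and 19.5 to 20.7 for oligodendrocytes, 39.4 to 50.6 and 37.7 to 42.3 for microglia, and 13 to 16.5 and 13.5 to 15.6 for endothelium and blood. These sums too hide single markers. Cux2, a forebrain neuron marker, rose past the threshold used below. In the authors' deposited means it was at 2.57 FPKM in Vehicle, 3.45 in SE-BDEV and 3.20 in CON-BDEV. Aldoc, an astrocyte marker given below, fell past the threshold, and no other member of these lists passed. Any part of depth or of these markers in the results was not tested.

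The shared response was small for most genes and, outside lipid synthesis, had no single direction. Of 11312 genes that averaged 1 FPKM or more, 485 passed an adjusted p of 0.05 in limma, 4.29% of those tested. Of these, 216 rose, 1.91% of the genes tested, and 269 fell, 2.38%. The median size of the difference among the 485 was 0.20, and 30 of them changed at least 1.5-fold in mean FPKM, of which 13 belong to the sterol list. Over all 11312 genes the median difference was 0.01 and 53.7% were higher in BDEV. Every BDEV library lay above every Vehicle library for 285 genes, 2.52%, and below for 302, 2.67%; among the 485 called genes the groups did not overlap for 169 that rose and 218 that fell. The sterol list gives the scale: 24 of 32 measured members fell, 0 rose, and its median was -0.51. Counts of list members below stand beside the shares of all genes, 1.91% that rose and 2.38% that fell. Over the 33 pathway lists, 8.96% of tested genes passed, against 4.29% of all genes. Their members were chosen with earlier results of these data known, so a higher share in a list is a description only.

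**Figure D1:**
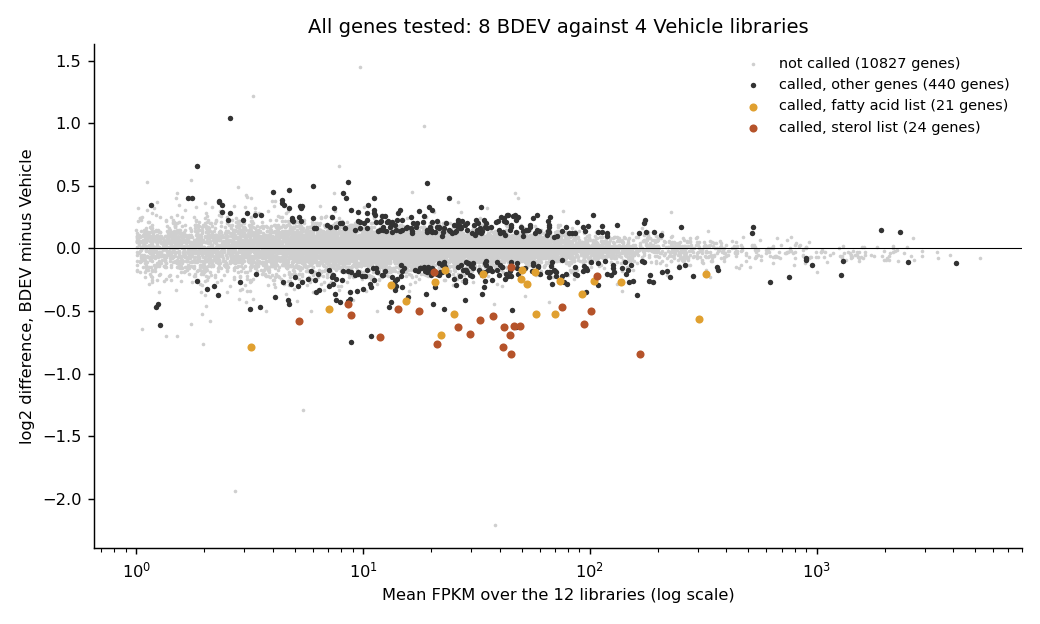
Each point is a gene: the horizontal axis is its mean FPKM over 12 libraries (log scale), the vertical axis the log2 difference of 8 BDEV against 4 Vehicle libraries. The 24 called sterol genes and 21 called fatty acid genes lie below 0, while the other called genes lie on both sides.

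How many genes passed rested on the Vehicle libraries. After removal of Vehicle replicate 1, 2, 3 or 4 the count was 160, 250, 217 or 232, and without CON-BDEV replicate 4 it was 289, whereas leaving out any of the other 7 BDEV libraries gave 371 to 539. In all, 141 genes passed in every one of the 12 fits that left out a library. Genes below that missed the threshold in such a fit are named with the library concerned.

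The kind of vesicle gave no gene-level difference past the threshold. In the 3-group limma model, 0 of 11312 genes differed between SE-BDEV and CON-BDEV at an adjusted p of 0.05 (smallest adjusted p 0.643), 296 had an unadjusted p under 0.05, and 3 of these were among the 485. A missed threshold does not show that both kinds act alike. As examples of the precision, SE-BDEV minus CON-BDEV was 0.01 ± 0.08 for Dbh, -0.01 ± 0.09 for Lpin1 and -0.11 ± 0.08 for H2-K1, in log2 units with the standard error.

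**Figure D2:**
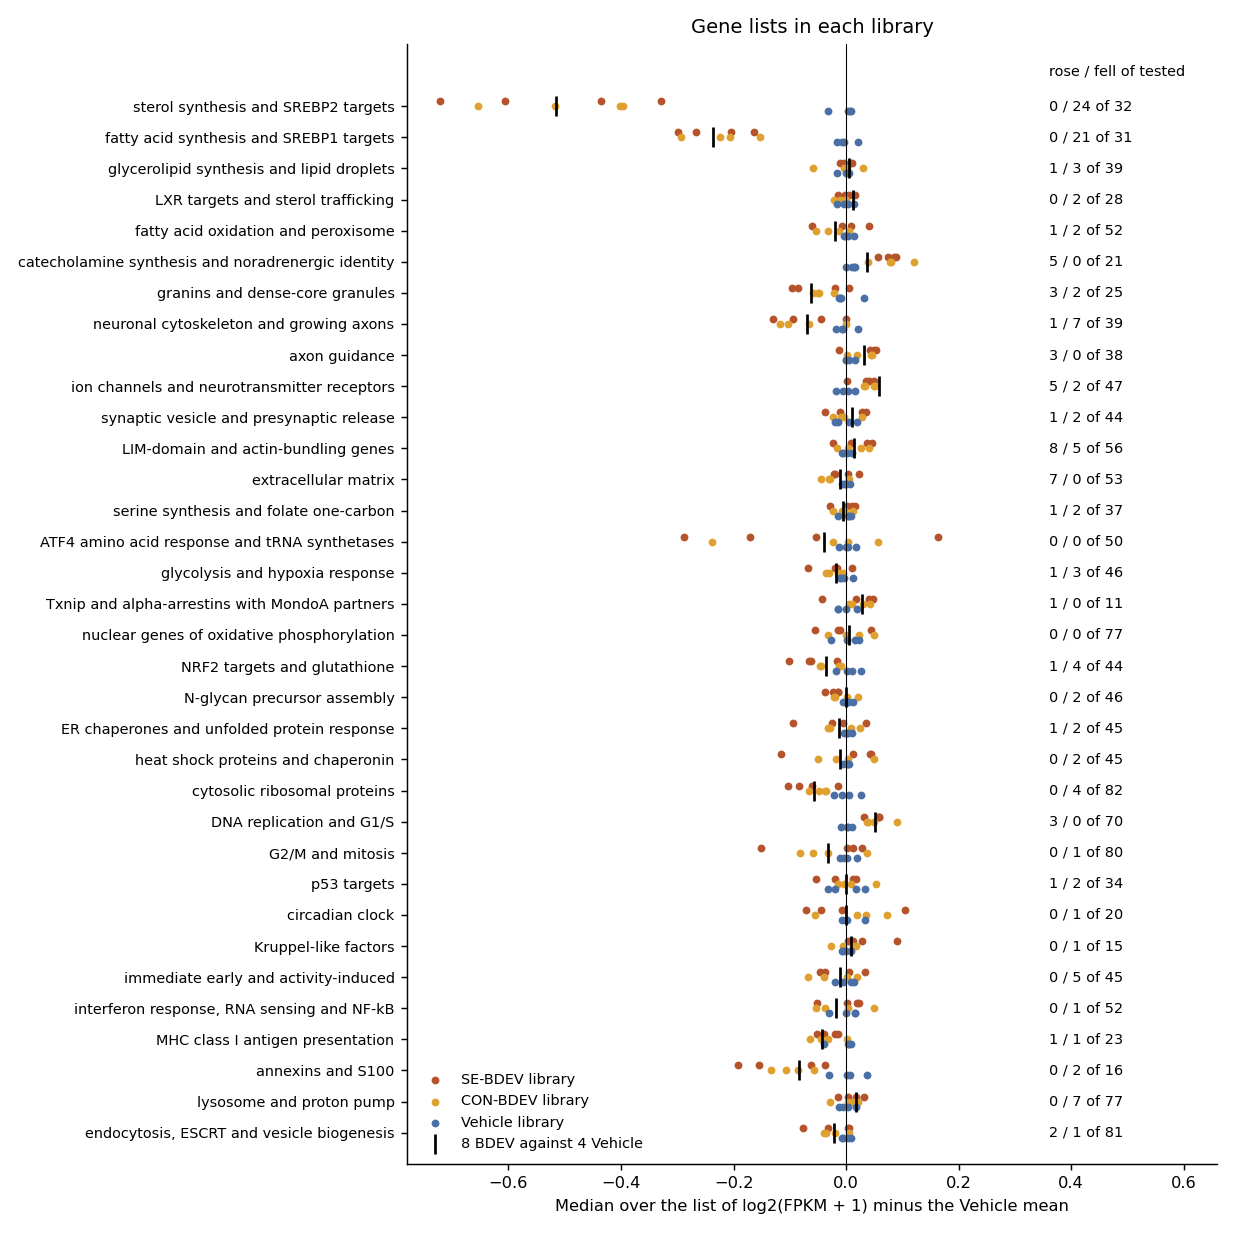
Points are list medians of log2(FPKM + 1) minus the Vehicle mean in each library, bars the list median of the fitted difference, and the right column counts members that rose and fell. The sterol and fatty acid lists lie left of every Vehicle library in all 8 BDEV libraries, and the ATF4 list spreads from -0.29 to 0.16 among BDEV libraries.

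Transcripts of fatty acid synthesis genes fell in cells given BDEVs. Of 31 measured members of the fatty acid list, 21 fell and 0 rose, and the list median was -0.24 against 0.01 over all genes. In each of the 8 BDEV libraries the list median, -0.30 to -0.15, lay below that of every Vehicle library, -0.02 to 0.02. The falls numbered 12, 13, 15 or 14 without Vehicle replicate 1, 2, 3 or 4. This list shares its SREBP control with the sterol genes in textbooks, so it is given here by its enzymes.

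At the start of the pathway stand the suppliers of carbon. Slc25a1, the mitochondrial citrate carrier, at chr16:17925303-17928312 on mm9 as in the deposited tables, measured 77.9, 69.5, 71.6 and 70.3 FPKM in Vehicle replicates 1 to 4 and 43.2 to 57.4 FPKM with a median of 51.2 in the 8 BDEV libraries. The groups did not overlap, and the difference was -0.52 ± 0.07 (adjusted p = 6.0e-04). Aacs, which activates acetoacetate in the cytosol, was at 30.2, 27.7, 30.2 and 30.9 FPKM in Vehicle and 14.2 to 21.5 FPKM, median 18.8, in BDEV, a difference of -0.69 ± 0.09 (adjusted p = 6.0e-04). Acly, which splits citrate to acetyl-CoA, fell by 0.20 on the log2 scale, Acss2, which makes acetyl-CoA from acetate, by 0.42, and Fasn, the synthase itself, by 0.36. Fasn did not pass with any Vehicle library or CON-BDEV replicate 4 left out (adjusted p of up to 0.089).

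Of 12 measured desaturases and elongation enzymes in the list, 8 fell, 0 rose and 4 did not pass. Scd2, the stearoyl-CoA desaturase most abundant here, was at 379, 377, 386 and 392 FPKM in Vehicle replicates 1 to 4. In BDEV libraries it ranged from 219 to 295 FPKM with a median of 268, below every Vehicle library, a difference of -0.56 ± 0.07 (adjusted p = 5.1e-04). Its paralog Scd1 (chr19:44468939-44482199) went from 8.55 to 9.43 FPKM in Vehicle to 4.98 to 6.93 FPKM in BDEV, -0.48 ± 0.07 (adjusted p = 0.0015). Fads2, the first desaturase of polyunsaturated fatty acid synthesis, was at 89.1, 84.7, 86.6 and 90.9 FPKM in Vehicle and 53.8 to 72.7 FPKM in BDEV, median 62.9. Neither gene overlapped between the groups, and Fads2 differed by -0.52 ± 0.07 (adjusted p = 8.8e-04). Tecr, which completes each round of elongation, fell by 0.27 ± 0.03 (adjusted p = 5.1e-04) from a level of 145 to 159 FPKM, and Elovl5 and Elovl6 fell by 0.19 and 0.27. Elovl5 did not pass with Vehicle replicate 1 left out (adjusted p of up to 0.059). Elovl6 did not pass with Vehicle replicate 1, 2 or 4 left out (adjusted p of up to 0.1). The 4 enzymes that were not called differed by 0.15 for the elongase Elovl7, 0.10 for Hacd3, a dehydratase of elongation, 0.01 for Scd3 and -0.09 for Elovl1. Pnpla3, a lipid droplet protein whose gene is an SREBP1 target, had the widest fall of any gene named outside the sterol list: 5.37, 4.60, 4.802 and 4.62 FPKM in Vehicle against 1.88 to 2.99 FPKM in BDEV, median 2.43, -0.79 ± 0.09 (adjusted p = 3.1e-04). Slc25a1, Aacs, Scd1, Scd2, Fads2, Tecr and Pnpla3 each passed with any single library left out.

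Beyond fatty acid synthesis, lipid genes split. Of 39 measured genes of glycerolipid synthesis and lipid droplets, 1 rose and 3 fell, with a list median of 0.00. Lpin1, the phosphatidate phosphatase that makes diacylglycerol (chr12:16542474-16596576), was at 13.3, 12.3, 12.2 and 12.1 FPKM in Vehicle and 5.99 to 8.67 FPKM in BDEV, median 7.16. The ranges lay apart by more than the spread within either group, and the difference was -0.75 ± 0.07 (adjusted p = 1.8e-04), with SE-BDEV at -0.76 and CON-BDEV at -0.75 against the same Vehicle libraries. Lpcat3, which puts polyunsaturated chains into phospholipids, fell by 0.31 on the log2 scale from 22.9 to 25.2 to 17.3 to 21.2 FPKM (adjusted p = 0.0023). Its relative Lpcat1, which prefers saturated chains, rose by 0.16 ± 0.04 (adjusted p = 0.025), from 20.4, 21.4, 20.4 and 21.8 FPKM in Vehicle to 21.9 to 25.0 FPKM in BDEV. The ranges of these acyltransferases did not overlap between groups, in opposite directions. Bscl2, the seipin of lipid droplet formation, fell by 0.17, and Pcyt2, the rate-setting enzyme of phosphatidylethanolamine synthesis, held in the fatty acid list, fell from 30.2 to 33.0 to 15.6 to 26.9 FPKM, -0.52 ± 0.10 (adjusted p = 0.011). Lpcat1 did not pass with Vehicle replicate 1, 2 or 3 left out (adjusted p of up to 0.1). Bscl2 did not pass with Vehicle replicate 1 left out (adjusted p of up to 0.053).

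Transcripts of sterol trafficking and fat burning genes moved little. Of 28 measured LXR targets and sterol carriers, 0 rose and 2 fell, and the median was 0.01: Npc2, which hands cholesterol out of the lysosome, fell by 0.21 on the log2 scale from 37.5, 36.1, 37.4 and 37.1 FPKM in Vehicle to 30.1 to 33.2 FPKM (adjusted p = 0.0015), and Scarb1, a lipoprotein receptor, by 0.18 (adjusted p = 0.017). Of 52 measured genes of fatty acid oxidation and peroxisomes, 1 rose and 2 fell, with a median of -0.02. Ucp2, a carrier of the inner mitochondrial membrane, was at 201, 184, 188 and 185 FPKM in Vehicle and 128 to 162 FPKM in BDEV, median 153. No BDEV library reached the lowest Vehicle value of Ucp2, and the difference was -0.37 ± 0.06 (adjusted p = 0.0038). Fabp5, an intracellular fatty acid carrier, fell by 0.21 and Pex2, a peroxisome biogenesis factor, rose by 0.15. Scarb1 missed the threshold with Vehicle replicate 1, 3 or 4 left out (highest adjusted p 0.061), Fabp5 with any Vehicle library or CON-BDEV replicate 4 (0.11) and Pex2 with Vehicle replicate 1, 2 or 3 (0.063).

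**Figure D3:**
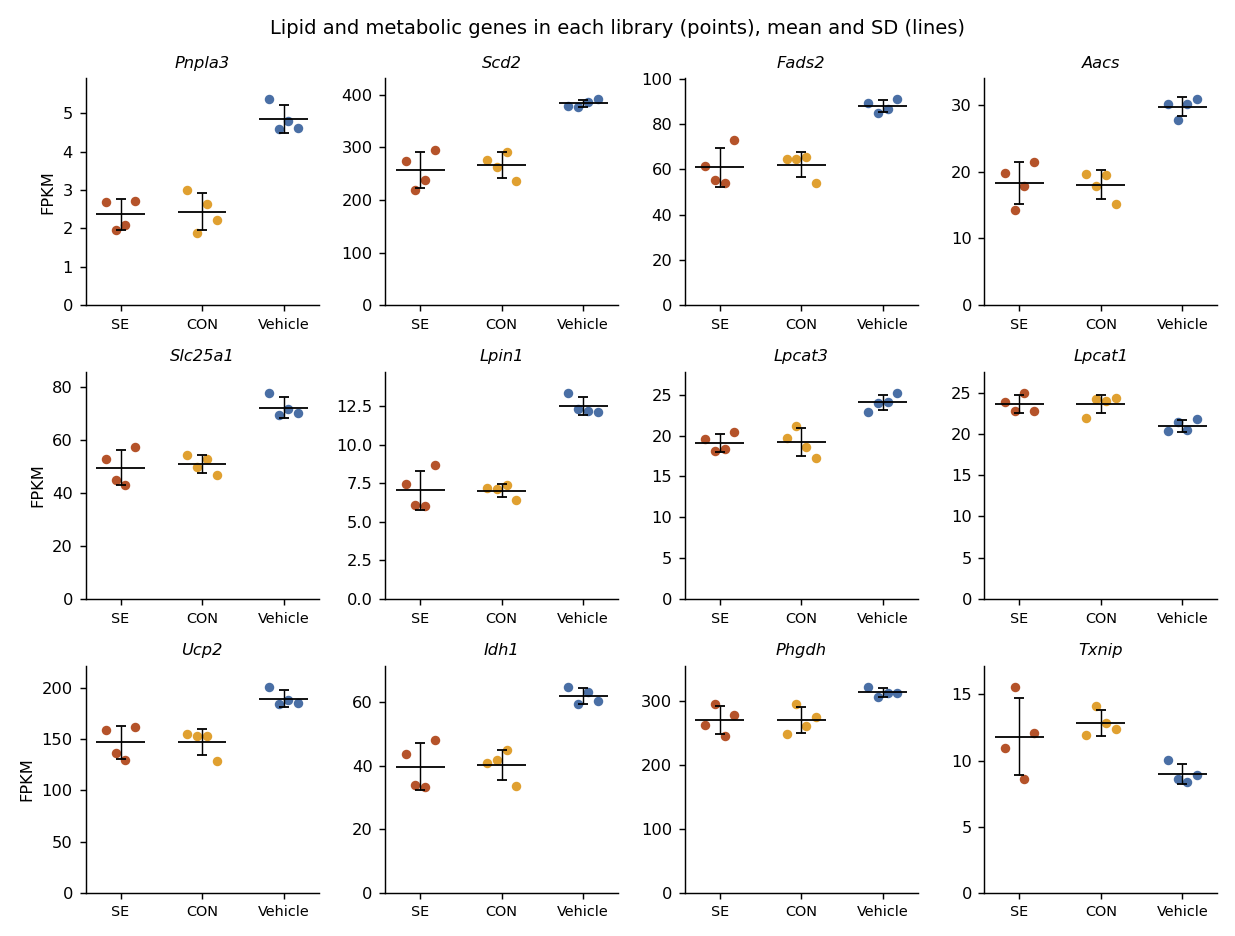
FPKM (vertical axes, from 0) of 12 lipid and metabolic genes in the 4 SE-BDEV, 4 CON-BDEV and 4 Vehicle libraries, with group mean and SD. Pnpla3, Scd2, Fads2, Aacs, Slc25a1, Lpin1, Lpcat3, Ucp2, Idh1 and Phgdh lie below every Vehicle library in all 8 BDEV libraries, Lpcat1 lies above, and Txnip overlaps.

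Several genes of the catecholamine pathway and the noradrenergic state rose. Catecholamine neurons convert tyrosine through tyrosine hydroxylase, Ddc and Dbh to noradrenaline, under transcription factors that include Phox2a, Hand2, Gata2 and Gata3. Of 21 measured members of the list, 5 rose and 0 fell, against 1.91% and 2.38% of all genes, and the list median was 0.04. The members were chosen with earlier results of these data known, so this contrast describes the list and does not test it. The rises numbered 3, 4, 5 or 4 without Vehicle replicate 1, 2, 3 or 4.

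Dbh, dopamine beta-hydroxylase (chr2:27021026-27038724), measured 3.87, 4.70, 4.67 and 4.77 FPKM in Vehicle replicates 1 to 4 and 5.96 to 7.59 FPKM with a median of 6.80 in BDEV. Every BDEV library was above every Vehicle library, with Vehicle replicate 1 the lowest, and the difference was 0.50 ± 0.06 (adjusted p = 6.2e-04). Ddc, which makes dopamine, went from 1.37, 1.12, 1.27 and 1.37 FPKM in Vehicle to 1.88 to 2.27 FPKM in BDEV, median 1.97, again without overlap, 0.40 ± 0.06 (adjusted p = 0.0017). Th, tyrosine hydroxylase, the first enzyme, was at 4.42 to 5.18 FPKM in Vehicle and 4.42 to 6.44 FPKM in BDEV and did not pass (0.16 ± 0.08, adjusted p = 0.28). Phox2a was at 83.5, 80.4, 77.95 and 76.7 FPKM in Vehicle and 83.9 to 98.8 FPKM in BDEV, median 92.4, 0.21 ± 0.04 (adjusted p = 0.0086). Hand2 rose by 0.20 ± 0.04 (adjusted p = 0.016) and Gata3 by 0.31 ± 0.06 (adjusted p = 0.015), while Gata2 differed by 0.13 (adjusted p = 0.084). Hand2 did not pass with Vehicle replicate 1 left out (adjusted p of up to 0.074). Gata3 did not pass with Vehicle replicate 1, 2 or 4 left out (adjusted p of up to 0.065). Dbh, Ddc and Phox2a passed with any single library left out.

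Transcripts of dense-core granule genes, whose proteins store and release these amines with peptides, changed in both directions. Of 25 measured genes, 3 rose and 2 fell, while the list median was -0.06. Chga, chromogranin A, was at 151, 159, 157 and 162 FPKM in Vehicle and 174 to 193 FPKM in BDEV, median 185, 0.23 ± 0.03 (adjusted p = 0.0013). Chgb, chromogranin B, was at 232, 233, 231 and 234 FPKM in Vehicle and 243 to 275 FPKM in BDEV, median 262, 0.17 ± 0.03 (adjusted p = 0.006). The other abundant granin, Scg2, secretogranin II, moved the other way, from 160.1, 163, 163 and 160.2 FPKM in Vehicle to 141 to 155 FPKM in BDEV, median 147, -0.13 ± 0.03 (adjusted p = 0.013). For each of these 3 granins the 8 BDEV libraries lay wholly to 1 side of the Vehicle libraries. The peptide precursor Cartpt rose by 0.28 ± 0.07 (adjusted p = 0.035) with overlapping ranges, 8.88 to 10.5 FPKM in Vehicle and 9.89 to 13.7 in BDEV, and Hid1, which serves granule biogenesis, fell by 0.25 (adjusted p = 0.047). Scg2 missed the threshold with Vehicle replicate 2 or 3 left out (highest adjusted p 0.054), Cartpt with any Vehicle library or CON-BDEV replicate 2 or 3 (0.12) and Hid1 with any Vehicle library, CON-BDEV replicate 1, 3 or 4 or SE-BDEV replicate 2 or 3 (0.15).

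Promoter letters are shown for the granule genes because members that hold the same element moved in opposite directions. The cAMP response element, TGACGTCA, is bound by CREB, a transcription factor activated by cAMP and calcium signals. RefSeq promoters on GRCm38.p6 could be matched for 4 of the 5 called granule genes (Hid1 was not matched). Chga held no exact match to the motifs searched, and the other 3, Chgb, Cartpt and Scg2, held the 7 letters TGACGTC or their reverse complement in the 250 bases before the start. The Chga window does hold TGACGTAA, close to TGACGTCA but outside an exact search, so Chga is not shown to lack such an element. The same letters stood in 3.16% of 27025 genes with a promoter in the table and in 5.98% of the 8676 tested genes that were matched. Among 19 tested granule genes that were matched, the full palindrome stood in the same 3, against 3.35% of tested genes. Pdlim3, a muscle LIM protein described below and among the 15 largest rises, and Pnpla3, given above, are printed beside them, chosen after their letters and values were seen. In each sequence, 150 bases up to the base before the start, 5′ to 3′ on the gene's strand, the capitals mark the palindrome.
Chgb, chr2:132781492-132781641, plus strand: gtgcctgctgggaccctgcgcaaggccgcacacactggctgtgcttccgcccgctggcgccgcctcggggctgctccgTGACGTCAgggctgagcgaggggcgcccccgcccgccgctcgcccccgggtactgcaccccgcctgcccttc
Cartpt, chr13:99900684-99900833, minus strand: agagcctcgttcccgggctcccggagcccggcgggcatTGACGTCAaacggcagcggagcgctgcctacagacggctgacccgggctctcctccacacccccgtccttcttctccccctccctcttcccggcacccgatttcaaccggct
Scg2, chr1:79440027-79440176, minus strand: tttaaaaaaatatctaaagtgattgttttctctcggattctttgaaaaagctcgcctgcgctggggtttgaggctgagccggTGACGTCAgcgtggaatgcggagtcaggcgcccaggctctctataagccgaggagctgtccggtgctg
Pdlim3, chr8:45885337-45885486, plus strand: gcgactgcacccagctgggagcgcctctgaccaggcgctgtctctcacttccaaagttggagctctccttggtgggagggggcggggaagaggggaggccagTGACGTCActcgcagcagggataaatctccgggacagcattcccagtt
Pnpla3, chr15:84167666-84167815, plus strand: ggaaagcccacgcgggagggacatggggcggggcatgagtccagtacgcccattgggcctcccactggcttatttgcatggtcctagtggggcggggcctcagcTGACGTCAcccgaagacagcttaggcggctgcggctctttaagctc
Capitals begin 72 bases before the start in Chgb, 112 in Cartpt, 68 in Scg2, 48 in Pdlim3 and 46 in Pnpla3. Among called members of any list, the sterol and marker lists included, the palindrome stood in 4 of 39 matched genes that rose (Cartpt, Chgb, Mcm5 and Pdlim3) and in 4 of 81 that fell (Pnpla3, Scg2, Trap1 and Trp53inp2). Over the genes that passed, the 7 letters were found in 14 of 172 matched genes that rose, 8.14%, and 14 of 198 that fell, 7.07%. The E-box CACGTG stood in 21 and 21 of these, 12.2% and 10.6%, against 10.1% of tested genes, and the amino acid response element core TTGCATC in 7 and 5, 4.07% and 2.53%, against 2.20%. A match is a string of letters in a window and says nothing of binding.

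Transcripts for several receptors and channels of autonomic neurons rose. Of 47 measured ion channel and neurotransmitter receptor genes, 5 rose and 2 fell, and the median was 0.06. The share that passed was 14.9%, against 4.29% of all genes. Both subunits of the serotonin-gated 5-HT3 channel rose: Htr3a was at 87.5, 89.6, 93.5 and 93.0 FPKM in Vehicle and 104 to 114.3 FPKM in BDEV, median 109, 0.27 ± 0.03 (adjusted p = 3.2e-04). Htr3b went from 3.48, 3.30, 3.44 and 3.90 FPKM in Vehicle to 4.64 to 6.05 FPKM, median 5.26, 0.47 ± 0.06 (adjusted p = 5.1e-04). Neither subunit overlapped between groups. Chrna3, the nicotinic acetylcholine receptor subunit of sympathetic ganglia, was at 35.3, 38.0, 39.6 and 39.5 FPKM in Vehicle and 43.5 to 49.6 FPKM in BDEV, median 46.1, 0.27 ± 0.04 (adjusted p = 0.0012). Hrh3, a histamine autoreceptor, rose by 0.34 and Kcnk3, a background potassium channel, by 0.21. Cacna1b, the pore subunit of the N-type calcium channel, fell by 0.21, and Clcn6, a chloride-proton exchanger of late endosomes, fell from 26.3, 25.0, 24.02 and 24.5 FPKM in Vehicle to 15.7 to 20.9 FPKM in BDEV, -0.44 ± 0.06 (adjusted p = 0.0011). Htr3a, Htr3b, Chrna3 and Clcn6 passed with any single library left out. Hrh3 missed the threshold with Vehicle replicate 1 left out (highest adjusted p 0.053), Kcnk3 with any Vehicle library (0.1) and Cacna1b with Vehicle replicate 1 or 4 (0.096).

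Synaptic release genes stood near the background: of 44 measured, 1 rose and 2 fell, with a median of 0.01. Syn2, a synapsin that tethers synaptic vesicles, was at 39.0, 37.7, 39.9 and 38.2 FPKM in Vehicle and 42.6 to 46.8 FPKM in BDEV, 0.21 ± 0.03 (adjusted p = 0.0012). Unc13a, which primes vesicles for fusion, fell by 0.17. Unc13a did not pass with any Vehicle library left out (adjusted p of up to 0.1). Axon guidance gave 3 rises and 0 falls of 38 measured, with a median of 0.03. They were the semaphorin receptors Plxnd1 and Nrp1 and the ligand Slit3. Plxnd1 was at 6.12, 6.72, 6.63 and 7.65 FPKM in Vehicle and 8.43 to 10.4 FPKM in BDEV, median 9.13, a difference of 0.40 ± 0.06 (adjusted p = 0.0015) with no overlap. Slit3 rose by 0.23 ± 0.04 (adjusted p = 0.0077) and Nrp1 by 0.20 ± 0.05 (adjusted p = 0.031). Nrp1 did not pass with any Vehicle library or CON-BDEV replicate 3 or 4 left out (adjusted p of up to 0.13).

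Cytoskeleton genes of growing axons moved against the noradrenergic genes. Of 39 measured genes, 7 fell and 1 rose, 20.5% against 4.29% of all genes, and the list median was -0.07. Leaving out Vehicle replicate 1, 2, 3 or 4 left 3, 4, 3 or 4 falls. Prph, peripherin, the intermediate filament of peripheral neurons, measured 859, 839, 828 and 831 FPKM in Vehicle and 664 to 744 FPKM with a median of 718 in BDEV. The BDEV libraries were all lower, -0.23 ± 0.03 (adjusted p = 6.9e-04). Stmn2, a stathmin that destabilises microtubules in growth cones, was at 151, 159, 159 and 163 FPKM in Vehicle and 128 to 147 FPKM in BDEV, -0.20 ± 0.04 (adjusted p = 0.01), and its relative Stmn3 fell by 0.10. The collapsin response mediators Crmp1 and Dpysl2 fell by 0.19 and 0.17, Crmp1 from 137 to 141 to 115 to 129.7 FPKM. The tubulins Tuba1a and Tubb2b, which have near-identical paralogs and are uncertain for that, fell by 0.27 and 0.28, whereas the neuron-specific Tubb3 was at 396 to 409.7 FPKM in Vehicle and 323 to 415 in BDEV (adjusted p = 0.53). The exception was Nrep, a neuronal regeneration-related protein, which rose from 14.8 to 15.9 to 17.2 to 21.8 FPKM, 0.30 ± 0.06 (adjusted p = 0.0098). Stmn3 missed the threshold with any Vehicle library, CON-BDEV replicate 2, 3 or 4 or SE-BDEV replicate 1, 3 or 4 left out (highest adjusted p 0.16), Dpysl2 with Vehicle replicate 1, 3 or 4 (0.062) and Tuba1a with any Vehicle library (0.12). Tubb2b missed it with any Vehicle library, CON-BDEV replicate 4 or SE-BDEV replicate 3 left out (highest adjusted p 0.13) and Nrep with Vehicle replicate 1 (0.0503).

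**Figure D4:**
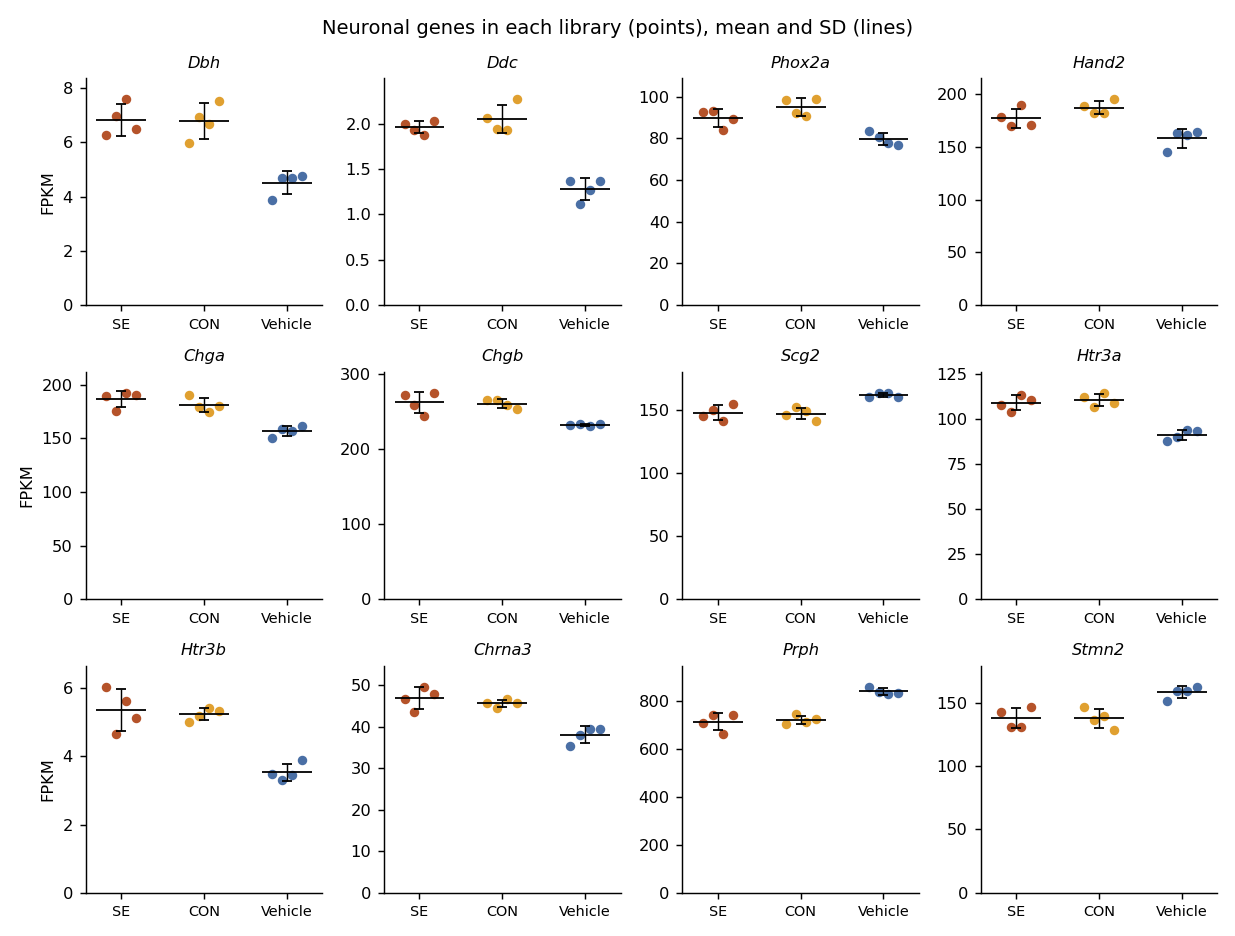
FPKM (vertical axes, from 0) of 12 neuronal genes in each library with group mean and SD. Dbh, Ddc, Phox2a, Hand2, Chga, Chgb, Htr3a, Htr3b and Chrna3 lie above every Vehicle library in all 8 BDEV libraries, and Scg2, Prph and Stmn2 lie below.

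Actin regulators changed in both directions. Of 56 measured LIM-domain and actin-bundling genes, 8 rose and 5 fell, with a median of 0.01. The share that passed was 23.2%, against 4.29% of all genes. Without Vehicle replicate 1, 2, 3 or 4, 3, 4, 2 or 3 rose and 1, 2, 2 or 2 fell. Pdlim3, which binds alpha-actinin (chr8:46970838-47004900), was at 12.7, 16.1, 15.05 and 14.9 FPKM in Vehicle and 18.6 to 26.2 FPKM in BDEV, median 20.9, 0.52 ± 0.09 (adjusted p = 0.0037). Ablim1, an actin-binding LIM protein, was at 16.3, 17.0, 17.5 and 17.8 FPKM in Vehicle and 19.96 to 24.3 FPKM in BDEV, 0.31 ± 0.05 (adjusted p = 0.0018). Both lay above every Vehicle library. Filamins crosslink actin, and the family split: Flnc fell from 27.8, 25.0, 25.9 and 26.1 FPKM in Vehicle to 21.4 to 24.4 FPKM, -0.21 ± 0.04 (adjusted p = 0.0076), and Flna rose by 0.13 ± 0.03 (adjusted p = 0.026) from 163 to 168 to 175 to 193 FPKM. Calponins split likewise, Cnn2 rising by 0.24 and Cnn3 falling by 0.16. Msn, moesin, which ties actin to the membrane, fell by 0.19, from 69.3 to 71.1 to 58.0 to 68.4 FPKM. Flna and Cnn3 missed the threshold with any Vehicle library left out (highest adjusted p 0.1), Cnn2 with Vehicle replicate 1, 3 or 4 (0.1) and Msn with Vehicle replicate 1 (0.053). Under scaling each library to a common median 7 members rose and 6 fell.

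Listed extracellular matrix genes gave rises only among those that passed: 7 of 53 measured rose and 0 fell, while the list median was -0.01. That is 13.2% called, against 4.29% of all genes. Without Vehicle replicate 1, 2, 3 or 4, 1, 3, 3 or 5 rose, and under median scaling 1 member fell. P4ha2, a collagen prolyl hydroxylase, was at 45.5, 44.7, 46.9 and 46.1 FPKM in Vehicle and 49.5 to 53.7 FPKM in BDEV, 0.17 ± 0.03 (adjusted p = 0.0054), and passed with any library left out. Plod1, a collagen lysyl hydroxylase, rose by 0.13 ± 0.03 (adjusted p = 0.029). Adamtsl2, a matrix glycoprotein, rose from 2.61, 3.27, 3.05 and 3.11 FPKM in Vehicle to 3.63 to 5.35 FPKM in BDEV, 0.45 ± 0.09 (adjusted p = 0.011). The others were Mmp17, a membrane-anchored protease, by 0.17, Sparcl1 by 0.28, Bcan, a proteoglycan, by 0.20, and Col11a2, a fibrillar collagen chain, by 0.27. The list does not hold every matrix gene. Outside it, in the authors' deposited means for Vehicle, SE-BDEV and CON-BDEV, Eln (3.37, 2.75 and 2.48 FPKM) and Npnt (5.15, 4.19 and 4.01) were lower with BDEVs. Mfap2 (103, 119 and 116 FPKM) and Matn3 (4.68, 5.80 and 5.46) were higher. Plod1 missed the threshold with any Vehicle library or CON-BDEV replicate 4 left out (highest adjusted p 0.12), Adamtsl2 with Vehicle replicate 1 (0.059) and Mmp17 with Vehicle replicate 1 or 3 (0.062). Sparcl1 missed it with Vehicle replicate 1 or 2 left out (highest adjusted p 0.08), Bcan with Vehicle replicate 1, 2 or 3 (0.1) and Col11a2 with any Vehicle library, CON-BDEV replicate 2, 3 or 4 or SE-BDEV replicate 1, 2 or 3 (0.16).

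Among cell surface genes, transcripts of annexins and a class I molecule fell. Of 16 measured annexin and S100 genes, 2 fell and 0 rose, with a median of -0.08. Anxa2, which binds acidic membrane phospholipids with calcium, was at 79.9, 75.7, 75.9 and 77.5 FPKM in Vehicle and 60.0 to 67.5 FPKM with a median of 63.6 in BDEV, -0.28 ± 0.03 (adjusted p = 2.8e-04). Anxa5 was at 73.6, 71.8, 74.6 and 69.1 FPKM in Vehicle and 58.6 to 67.9 FPKM in BDEV, -0.19 ± 0.03 (adjusted p = 0.0054). Neither overlapped, and both passed with any library left out. H2-K1, a class I heavy chain of antigen presentation whose near-identical relatives make its value uncertain, was at 58.1, 54.4, 57.7 and 54.0 FPKM in Vehicle and 33.3 to 46.6 FPKM in BDEV, -0.49 ± 0.07 (adjusted p = 0.0021). It was the only member of 23 measured class I pathway genes that fell, and the chaperone Calr, calreticulin, was the only member that rose, by 0.17 ± 0.04 (adjusted p = 0.027), so the list, with a median of -0.04, did not move as a whole. Calr did not pass with any Vehicle library left out (adjusted p of up to 0.093).

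**Figure D5:**
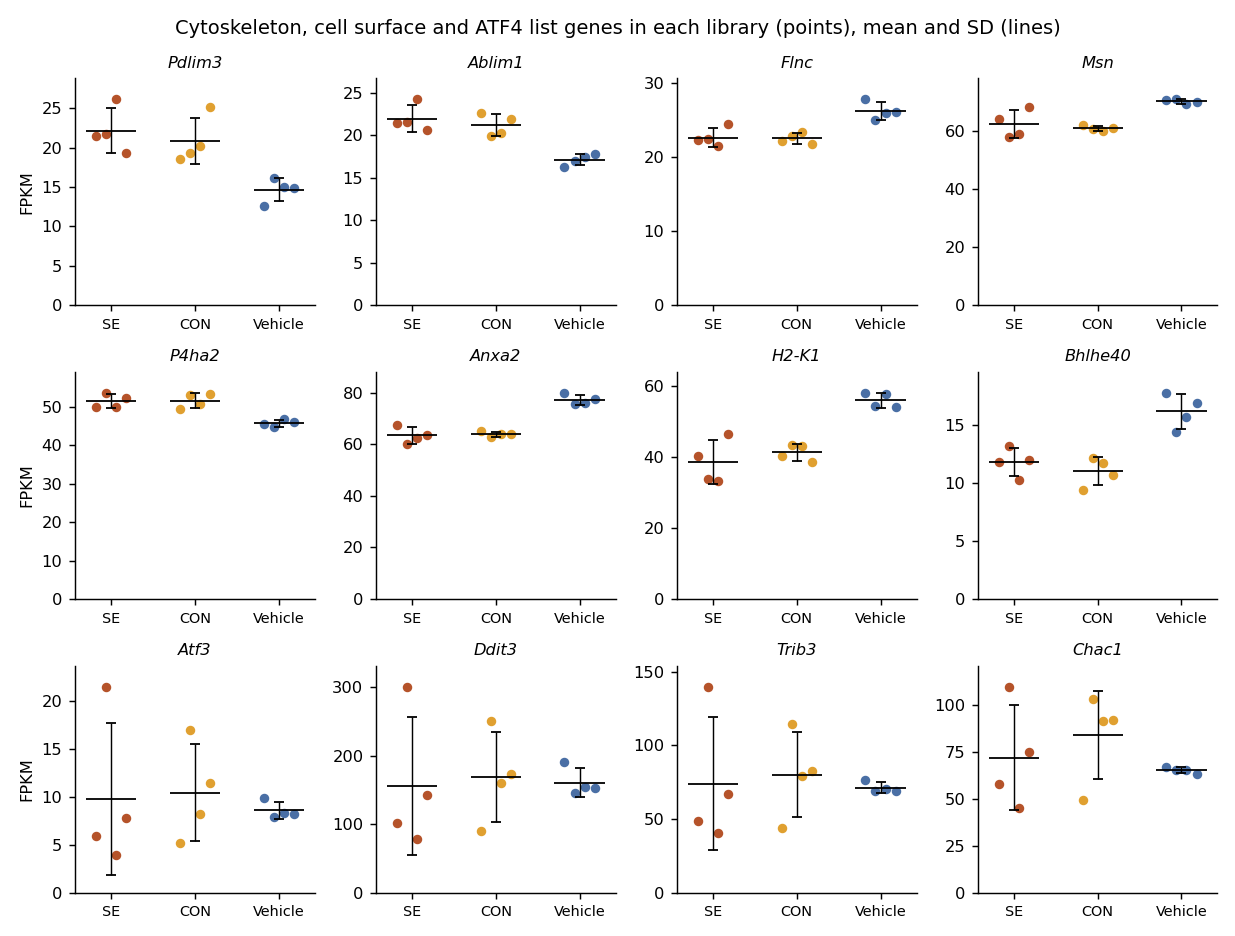
FPKM (vertical axes, from 0) in each library with group mean and SD for 8 cytoskeletal, matrix, surface and clock genes and 4 genes of the ATF4 list. Pdlim3, Ablim1 and P4ha2 lie above and Flnc, Msn, Anxa2, H2-K1 and Bhlhe40 below every Vehicle library, while Atf3, Ddit3, Trib3 and Chac1 spread to both sides of Vehicle.

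Innate immune genes were close to the background. Of 52 measured interferon, RNA sensing and NF-kB genes, 0 rose and 1 fell, Nfkb2, the precursor of the p52 subunit, from 12.6, 12.3, 12.4 and 13.3 FPKM in Vehicle to 9.52 to 11.4 FPKM in BDEV, -0.25 ± 0.05 (adjusted p = 0.012). Nfkb2 did not pass with Vehicle replicate 1 or 4 left out (adjusted p of up to 0.056). Immediate early and activity-induced genes, which answer growth factor and calcium signals, gave 5 falls and 0 rises of 45 measured, with a median of -0.01, and 1, 1, 1 or 2 falls without Vehicle replicate 1, 2, 3 or 4. Dusp10, a phosphatase of stress kinases, was at 8.82, 9.25, 9.26 and 9.56 FPKM in Vehicle and 6.86 to 8.02 FPKM in BDEV, -0.25 ± 0.04 (adjusted p = 0.0029), and passed with any library left out. Phlda1 fell by 0.19, Dusp4, a phosphatase of ERK, by 0.16, Spred2, an inhibitor of Ras to ERK signalling, by 0.13, and Nr4a1, an orphan nuclear receptor, by 0.22. Phlda1 missed the threshold with Vehicle replicate 1, 2 or 3 left out (highest adjusted p 0.074), Dusp4 with any Vehicle library, CON-BDEV replicate 1, 3 or 4 or SE-BDEV replicate 3 (0.16) and Spred2 with any Vehicle library or CON-BDEV replicate 2 or 4 (0.12). Nr4a1 missed it with any Vehicle library, CON-BDEV replicate 1, 2 or 3 or SE-BDEV replicate 1, 3 or 4 left out (highest adjusted p 0.14).

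Regulatory lists gave few calls. Bhlhe40, a repressor of the circadian clock, was at 17.7, 14.3, 15.6 and 16.8 FPKM in Vehicle and 9.41 to 13.2 FPKM with a median of 11.8 in BDEV, -0.47 ± 0.07 (adjusted p = 0.0026), and was the 1 called gene of 20 measured in its list, which had a median of 0.00. Klf6 was the 1 called gene of 15 Kruppel-like factors, 24.1, 23.97, 25.1 and 24.05 FPKM in Vehicle and 20.4 to 22.2 FPKM in BDEV, -0.19 ± 0.03 (adjusted p = 0.0032). Among 34 measured genes listed as p53 targets, 1 rose and 2 fell with a median of 0.00. Whether each of them answers to p53 in these cells was not tested. Cdkn1a, the cell cycle inhibitor p21, was at 36.3, 30.7, 34.0 and 33.4 FPKM in Vehicle and 18.7 to 29.9 FPKM in BDEV, -0.41 ± 0.10 (adjusted p = 0.035), Trp53inp2 fell by 0.19 (adjusted p = 0.01) and Gadd45g rose by 0.33 (adjusted p = 0.011). Bhlhe40, Klf6 and Trp53inp2 passed with any library left out. Cdkn1a did not pass with any Vehicle library, CON-BDEV replicate 1 or 4 or SE-BDEV replicate 1 left out (adjusted p of up to 0.13). Gadd45g did not pass with Vehicle replicate 1 left out (adjusted p of up to 0.053).

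Cell cycle lists leaned slightly without many calls. Of 70 measured genes of DNA replication and G1/S, 3 rose and 0 fell, 53 were higher and the median was 0.05, and 14 rose with array weights. The share called, 4.29%, was that of all genes tested. Rfc4, a clamp loader subunit, was at 25.4, 25.0, 22.7 and 24.5 FPKM in Vehicle and 26.6 to 30.8 FPKM in BDEV, 0.22 ± 0.04 (adjusted p = 0.0081). The helicase subunit Mcm5 and the initiation factor Mcm10 rose by 0.14 and 0.15. Of 80 measured genes of G2/M and mitosis, 0 rose and 1 fell, 55 were lower and the median was -0.03. The member that fell was Fam64a, from 38.6, 38.4, 41.6 and 38.1 to 28.1 to 37.1 FPKM, -0.31 ± 0.06 (adjusted p = 0.0098). Rfc4 and Fam64a passed with any library left out. Mcm5 did not pass with Vehicle replicate 1, 2 or 3 left out (adjusted p of up to 0.11). Mcm10 did not pass with any Vehicle library or CON-BDEV replicate 3 or 4 left out (adjusted p of up to 0.12).

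Energy metabolism genes changed in transcript level at single steps. Idh1, the cytosolic isocitrate dehydrogenase that supplies NADPH, was among the 15 widest falls: 64.9, 59.6, 63.4 and 60.5 FPKM in Vehicle and 33.3 to 48.2 FPKM with a median of 41.4 in BDEV, with no overlap, -0.63 ± 0.09 (adjusted p = 0.0013). Of 46 measured glycolysis and hypoxia genes, 1 rose and 3 fell, with a median of -0.02. Hif1a, the oxygen-regulated transcription factor, was at 56.1, 56.7, 54.2 and 56.7 FPKM in Vehicle and 47.8 to 51.3 FPKM in BDEV, -0.16 ± 0.03 (adjusted p = 0.0043). Aldoc, the aldolase of brain and also an astrocyte marker, was low at 1.60, 1.91, 1.68 and 1.67 FPKM in Vehicle and 0.628 to 1.24 FPKM in BDEV, -0.47 ± 0.09 (adjusted p = 0.0069). Pfkp, a phosphofructokinase, fell by 0.11, and P4ha2, the rise, is described with the matrix genes. None of 77 nuclear genes of oxidative phosphorylation passed in limma, and none had ranges without overlap. Pfkp did not pass with any Vehicle library, CON-BDEV replicate 1, 3 or 4 or SE-BDEV replicate 3 left out (adjusted p of up to 0.12).

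Serine and one-carbon genes gave 1 rise and 2 falls of 37 measured, with a median of -0.01, and 6 falls without SE-BDEV replicate 2 or with array weights. Phgdh, the first enzyme of serine synthesis, was at 323, 307, 313 and 314 FPKM in Vehicle and 245 to 296 FPKM in BDEV, -0.22 ± 0.05 (adjusted p = 0.02). Shmt2, which passes the serine carbon to folate in mitochondria, was at 207, 195, 211 and 209 FPKM in Vehicle and 153 to 192 FPKM in BDEV, -0.26 ± 0.06 (adjusted p = 0.017). Phgdh and Shmt2 did not pass with Vehicle replicate 1, 3 or 4 left out (adjusted p of up to 0.084). Txnip, an arrestin that curbs glucose uptake, was at 10.04, 8.64, 8.36 and 8.92 FPKM in Vehicle and 8.61 to 15.6 FPKM in BDEV, overlapping. It was the 1 called gene of 11 in its list, 0.40 ± 0.11 (adjusted p = 0.048), and did not pass under median scaling (adjusted p = 0.053). Txnip did not pass with any Vehicle library, any CON-BDEV library or SE-BDEV replicate 1 or 4 left out (adjusted p of up to 0.15).

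Of 44 measured NRF2 targets and glutathione genes, 1 rose and 4 fell, with a median of -0.03, and without Vehicle replicate 1, 2, 3 or 4 the falls numbered 0, 1, 1 or 2. Ftl1, ferritin light chain, was at 1756, 1750.4, 1816 and 1833 FPKM in Vehicle and 1893 to 2100.5 FPKM in BDEV, 0.15 ± 0.03 (adjusted p = 0.011). The falls were Me1, malic enzyme, which the fatty acid list also holds, by 0.17, Gsto1, a glutathione transferase, by 0.20, Gpx1, glutathione peroxidase, by 0.14, and Tkt, transketolase, by 0.16. Ftl1 and Me1 missed the threshold with Vehicle replicate 1 or 2 left out (highest adjusted p 0.059), Gsto1 with Vehicle replicate 1, 2 or 3 (0.075) and Gpx1 with Vehicle replicate 1, 3 or 4 (0.089). Tkt missed it with any Vehicle library, any CON-BDEV library or SE-BDEV replicate 1 or 3 left out (highest adjusted p 0.17).

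Protein synthesis and folding genes differed little. Of 82 cytosolic ribosomal protein genes, 80 were lower and 4 fell, with a median of -0.06, and 0 rose. The share called, 4.88%, was near the 4.29% of all genes tested. Under median scaling 8 fell and with array weights, which give each library a weight by its spread, 14 fell. With 1 library left out, 11 fell without SE-BDEV replicate 4, 5 without SE-BDEV replicate 2 and 4 without CON-BDEV replicate 2. By contrast, 1 fell when SE-BDEV replicate 1 or 3 or CON-BDEV replicate 1 or 3 was left out, and none when CON-BDEV replicate 4 or any Vehicle library was. The 3-group model and the replicate block each gave 1 fall. Rpl4 was at 1371, 1368, 1374 and 1368 FPKM in Vehicle and 1214 to 1336 FPKM in BDEV, -0.10 ± 0.02 (adjusted p = 0.037), and the others were Rpl28, Rpl13a and Rpsa at -0.11, -0.13 and -0.08. Ribosomal protein genes have many processed pseudogenes, so their values are uncertain. Of 45 measured endoplasmic reticulum chaperone genes, 1 rose (Calr) and 2 fell, Srp54b by 0.26 and Spcs3 by 0.11, with a median of -0.01. Of 45 heat shock and chaperonin genes, the mitochondrial chaperones Hspa9 and Trap1 fell by 0.15 and 0.09, 0 rose and the median was -0.01. Of 46 genes of N-glycan precursor assembly, Uap1, which makes UDP-N-acetylglucosamine, fell by 0.20 (adjusted p = 0.0081), Krtcap2 fell by 0.18, 0 rose and the median was 0.00. Rpl4 missed the threshold with any Vehicle library, CON-BDEV replicate 1, 3 or 4 or SE-BDEV replicate 1 left out (highest adjusted p 0.11), Rpl28 with any Vehicle library, CON-BDEV replicate 2, 3 or 4 or SE-BDEV replicate 1 or 3 (0.12) and Rpl13a with any Vehicle library, CON-BDEV replicate 1 or 4 or SE-BDEV replicate 3 (0.14). Rpsa missed it with any Vehicle library, CON-BDEV replicate 1, 3 or 4 or SE-BDEV replicate 1 or 3 left out (highest adjusted p 0.14), Srp54b with Vehicle replicate 1, 3 or 4 (0.12) and Spcs3 with any Vehicle library, CON-BDEV replicate 1 or 4 or SE-BDEV replicate 1 or 4 (0.17). Hspa9 missed it with any Vehicle library, CON-BDEV replicate 1, 3 or 4 or SE-BDEV replicate 1 or 4 left out (highest adjusted p 0.16), Trap1 with any Vehicle library or CON-BDEV replicate 3 or 4 (0.11) and Krtcap2 with any Vehicle library, CON-BDEV replicate 2 or 4 or SE-BDEV replicate 1, 3 or 4 (0.14).

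Organelles that receive vesicles were examined as well. Of 77 measured lysosome and proton pump genes, 7 fell and 0 rose, while 47 were higher and the median was 0.02. The share called was 9.09%, against 4.29% of all genes. Without Vehicle replicate 1, 2, 3 or 4, 2, 3, 4 or 4 fell, and 4 fell without SE-BDEV replicate 3 or CON-BDEV replicate 4. Besides Clcn6 and Npc2, given above, these were Galns, a sulfatase of keratan sulfate, 15.6, 14.7, 14.6 and 14.9 FPKM in Vehicle and 11.5 to 13.8 FPKM in BDEV, -0.23 ± 0.04 (adjusted p = 0.0098). Asah1, the acid ceramidase, was at 76.3, 77.7, 73.3 and 72.3 FPKM in Vehicle and 59.5 to 69.9 FPKM in BDEV, -0.17 ± 0.04 (adjusted p = 0.024). Arsa and Gm2a, which serve breakdown of sulfatide and ganglioside, fell by 0.30 and 0.18, and Atp6v1g1, a proton pump subunit, by 0.12. The list does not hold every lysosome gene. Outside it, in the authors' deposited means for Vehicle, SE-BDEV and CON-BDEV, Slc36a1 (37.6, 45.9 and 45.4 FPKM) and Laptm4a (106, 116 and 117) were higher with BDEVs. Scpep1 (78.4, 67.7 and 67.2 FPKM) was lower. Of 81 measured genes of endocytosis, ESCRT and vesicle biogenesis, 2 rose and 1 fell, with a median of -0.02: the ESCRT factors Chmp1a and Vps4a rose by 0.17 and 0.13, and Stam fell by 0.14. Vps4a did not pass under median scaling (adjusted p = 0.067). Galns missed the threshold with Vehicle replicate 1 left out (highest adjusted p 0.057), Asah1 with Vehicle replicate 1, 2 or 3 (0.096) and Arsa with any Vehicle library, CON-BDEV replicate 1 or 4 or SE-BDEV replicate 2 or 3 (0.15). Gm2a and Stam missed it with any Vehicle library, any CON-BDEV library or SE-BDEV replicate 1, 2 or 3 left out (highest adjusted p 0.18), Atp6v1g1 with Vehicle replicate 1, 2 or 4, CON-BDEV replicate 3 or 4 or SE-BDEV replicate 1, 3 or 4 (0.17) and Chmp1a with Vehicle replicate 1, 3 or 4 or CON-BDEV replicate 4 (0.13). Vps4a missed it with Vehicle replicate 1, 2 or 3, any CON-BDEV library or SE-BDEV replicate 1, 2 or 3 left out (highest adjusted p 0.19).

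Among the 15 largest rises and falls, several genes belong to none of the lists. Hist2h4, a replication-dependent histone gene with near-identical copies, had the widest rise. It went from 1.95, 0.489, 0.945 and 0.972 FPKM in Vehicle to 1.71 to 6.23 FPKM in BDEV, 1.04 ± 0.22 (adjusted p = 0.015). Vehicle replicate 1 lay inside the BDEV range. The authors' Cuffdiff comparisons did not call it (q = 0.247 for SE-BDEV and 0.255 for CON-BDEV). How fully polyadenylated RNA holds the transcripts of this gene was not tested, so its value is uncertain. Lix1 was at 18.2, 21.0, 17.998 and 20.9 FPKM in Vehicle and 23.97 to 27.9 FPKM in BDEV, 0.40 ± 0.05 (adjusted p = 5.1e-04), without overlap. Slc40a1, ferroportin, the iron exporter, rose by 0.40 ± 0.10 (adjusted p = 0.032) from 0.861 to 1.39 to 1.45 to 2.38 FPKM, and Atoh8, a bHLH transcription factor, by 0.44 ± 0.10 (adjusted p = 0.02). Fam129a, a stress-response gene, fell from 18.1, 12.99, 14.5 and 13.5 FPKM in Vehicle to 6.09 to 14.3 FPKM in BDEV, -0.70 ± 0.16 (adjusted p = 0.025). Sync, syncoilin, an intermediate filament protein, was at 4.59, 4.41, 3.98 and 3.55 FPKM in Vehicle and 1.94 to 3.19 FPKM in BDEV, -0.48 ± 0.09 (adjusted p = 0.006). Hist2h4 missed the threshold with Vehicle replicate 2 or 3 left out (highest adjusted p 0.061), Slc40a1 with any Vehicle library or CON-BDEV replicate 3 or 4 (0.14) and Atoh8 and Fam129a with Vehicle replicate 1, 3 or 4 (0.11).

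The ATF4 list, the amino acid and integrated stress response with tRNA synthetases, gave no call, and its list median had the widest range among BDEV libraries of all lists. Of 50 measured members, 0 passed in limma, with a median of -0.04, 5 fell without SE-BDEV replicate 2, 1 fell without CON-BDEV replicate 2, 8 fell with array weights and 1 fell with the replicate block. The median standard deviation of a member was 0.154 on the log2(FPKM + 1) scale over the 8 BDEV libraries and 0.0339 over the 4 Vehicle libraries. Over all genes tested it was 0.0854 and 0.0565. The list median by library was 0.16 in SE-BDEV replicate 2 and 0.06 in CON-BDEV replicate 2, -0.29 in SE-BDEV replicate 3, -0.24 in CON-BDEV replicate 1, -0.17 in SE-BDEV replicate 1, and between -0.05 and 0.00 in the other 3, so libraries of both vesicle kinds lay to either side of Vehicle, which was -0.01 to 0.02. Replicate 2 was above Vehicle and replicate 1 below in both kinds, while replicate 3 was -0.29 in SE-BDEV and -0.02 in CON-BDEV. Over all genes tested, deviations of the SE-BDEV and CON-BDEV libraries from their group means correlated at 0.20 for replicate 1, 0.30 for replicate 2, -0.07 for replicate 3 and -0.12 for replicate 4. The labels do not say what a replicate number marks, and its part in these values was not tested.

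The members with the widest range in BDEV, chosen after their values were seen, are shown. Atf3, a transcription factor induced under stress, was at 5.93, 21.5, 3.96 and 7.80 FPKM in SE-BDEV replicates 1 to 4, 5.19, 16.9, 8.19 and 11.4 FPKM in CON-BDEV, and 9.93, 7.88, 8.29 and 8.23 FPKM in Vehicle. Ddit3, which encodes CHOP, ran in the same order of extremes: 102, 301, 78.7 and 143 FPKM in SE-BDEV, 90.6, 251, 161 and 173 FPKM in CON-BDEV, and 192, 145, 154 and 153 FPKM in Vehicle. Trib3, a pseudokinase target of ATF4 and CHOP, spread 3.45-fold among BDEV libraries, 40.5 to 139.8 FPKM, and 1.12-fold among Vehicle libraries, 68.8 to 76.8 FPKM. For these 3 genes SE-BDEV replicate 2 was the highest library and SE-BDEV replicate 3 the lowest. The sterol list median ran from -0.72 in SE-BDEV replicate 2 and -0.61 in SE-BDEV replicate 3 to -0.33 in SE-BDEV replicate 4, so both ATF4 extremes lay among the stronger sterol falls.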

How the data were processed

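Polyadenylated RNA of N2a cells was sequenced in 12 libraries. The submitters' processing notes name TopHat2, Cuffdiff and mm9, without versions, as what the authors used to make the deposited FPKM values. Strand handling was, like gene annotation, not given in the sources used here. The authors' comparison tables, with a deposited log2 fold change, p-value and q-value per gene, served here for loci and for counts in the closing section. Vehicle columns stood in both FPKM tables, off by at most 0.0335%, and were averaged. limma 3.58.1 in R 4.3.3 was fitted to log2(FPKM + 1), 8 BDEV against 4 Vehicle libraries, with a mean-variance trend, two-sided, on 11312 genes of 24318 with a mean of at least 1 FPKM. Benjamini-Hochberg adjustment ran over all genes tested, and every adjusted p is from limma. The fit was tested on simulated data. Depth was estimated from FPKM values of up to 0.05 on transcripts of 1500 to 8000 bases, so it is approximate. Genes with several names, predicted loci and short RNAs were not named. Named were the 15 largest rises and falls, up to 4 called members of a list by adjusted p, its largest change each way where both occurred, and neuroblastoma markers. Other called list members, and examples that did not pass, were added after their values were seen. Members, lists and tests were chosen with earlier results of these data known. Values of some list members are not reported here. Promoters came from RefSeq (GRCm38.p6). Figures were drawn with matplotlib 3.10.9.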

Additional observations from a re-analysis of the deposited data

Results flagged for a closer look

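In 12 of 240 groups looked at, for the 120 named genes in the 8 BDEV and in the 4 Vehicle libraries, 1 library stood apart from the rest by Dixon's test, and chance flags about 1 group in 20. In Vehicle, replicate 1 was lowest for Dbh (3.87 FPKM, the next 4.67), Spred2 (41.0, the next 42.7) and Hand2 (145, the next 161) and highest for Lpin1 (13.3, the next 12.3). Replicate 2 was highest for Galnt5 (1.98, the next 1.69) and lowest for Gpx1 (96.3, the next 101.0). Replicate 3 was highest for Fam64a (41.6, the next 38.6), Klf6 (25.1, the next 24.1) and Alk (6.12, the next 5.88). Among BDEV libraries, CON-BDEV replicate 4 was highest for Ddc (2.27, the next 2.06), CON-BDEV replicate 3 for Srp54b (2.01, the next 1.76) and SE-BDEV replicate 2 for Insm1 (29.7, the next 23.2), a neuroendocrine transcription factor that did not pass (0.29 ± 0.09, adjusted p = 0.098).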

How the results depend on the processing

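With array weights in limma 943 genes passed (479 rose, 464 fell), 227 of them in the pathway lists, against 485 (216 and 269) and 129 in the main comparison. Leaving out 1 library gave 160 to 539 called genes, 54 to 239 that rose, 106 to 308 that fell and 49 to 144 in pathway lists, the lowest of each without Vehicle replicate 1. Other settings gave 484 (pseudocount 0.1), 496 (mean of at least 5 FPKM), 498 (median scaling), 381 (3-group model), 487 and 486 (Vehicle from the SE-BDEV or CON-BDEV table alone) and, over every gene measured, 342. A replicate block gave 411. Same-numbered libraries of different groups deviated with correlations of -0.12 to 0.30, 2 of 12 pairs above 0.1, and 4 of 12 libraries correlated best with their own number, so the numbers were not taken as pairs. SE-BDEV against CON-BDEV gave 0 genes in every fit run. No named gene changed direction. Of 109 named called genes, 48 passed with each library left out and 65 under all 9 other settings. The authors' deposited tables, from Cuffdiff, call 101 of the 485 in both comparisons and 320 in neither. The 4 Vehicle libraries limit these counts.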

Other observations

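Integrin subunit genes, receptors for matrix that no list covered, were looked at after the data were seen. Of 12 measured, 4 fell and 0 rose, against 2.38% and 1.91% of all genes. In all, 9 were lower and the median was -0.08. Itga3 was at 14.1, 12.97, 13.8 and 13.5 FPKM in Vehicle and 10.8 to 13.01 FPKM in BDEV, -0.18 ± 0.05 (adjusted p = 0.044), Itga6 at 97.6, 94.9, 92.0 and 90.3 and 72.4 to 89.6 FPKM, -0.20 ± 0.05 (adjusted p = 0.03). Itgb4, the beta partner of Itga6, differed by -0.28 ± 0.07 (adjusted p = 0.029) and Itgb5 by -0.15 ± 0.04 (adjusted p = 0.032). Itga3 did not pass with any Vehicle library, CON-BDEV replicate 1, 3 or 4 or SE-BDEV replicate 1 left out (adjusted p of up to 0.17). Itga6, Itgb4 and Itgb5 did not pass with any Vehicle library or CON-BDEV replicate 4 left out (adjusted p of up to 0.12).

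Other genes outside the lists, also picked after their values were seen, include these. Rdh11, a retinol dehydrogenase, was at 37.9, 40.5, 39.8 and 39.7 FPKM in Vehicle and 27.95 to 33.7 FPKM in BDEV, -0.36 ± 0.04 (adjusted p = 3.1e-04). Dbi, the acyl-CoA binding protein, was at 169, 163, 172 and 169 FPKM in Vehicle and 125 to 153 FPKM in BDEV, -0.27 ± 0.05 (adjusted p = 0.0081). Lgals1, a galactoside-binding lectin, was at 1381, 1379, 1465 and 1419 FPKM in Vehicle and 1145 to 1300.3 FPKM in BDEV, -0.21 ± 0.03 (adjusted p = 0.0018). Cnr1, the cannabinoid receptor of neurons, was at 31.7, 31.6, 31.9 and 31.7 FPKM in Vehicle and 33.5 to 40.6 FPKM in BDEV, 0.20 ± 0.04 (adjusted p = 0.015). Cnr1 did not pass with Vehicle replicate 1 left out (adjusted p of up to 0.059).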
